A study of Mus musculus with 12 samples.

Results

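The EphA receptors and their ephrin-A ligands were followed in single-nucleus RNA sequencing of mouse lungs. The members were the rows whose symbol was Epha1, Epha2, Epha3, Epha4, Epha5, Epha7, Efna1, Efna2, Efna4 or Efna5, which made 10 genes of 31053 in the deposited matrices. The lungs came from 12 C57BL/6J mice in 4 groups of 3, and each mouse gave 1 library. Mice received PBS or bleomycin, an injurious drug used to model lung fibrosis, through the trachea. From day 5 after that they received the EphB4 kinase inhibitor NVP-BHG712 or its vehicle by mouth for 5 days. Lungs were taken on day 14, counted from the same point. The groups are called PBS_vehicle, PBS_NVP, Bleo_vehicle and Bleo_NVP. The groups differed by treatment, and the labels name no genetic change in any of them. Nuclei were isolated from frozen lung and sorted on DAPI, a DNA dye, so that cytoplasmic RNA was largely left behind.

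Eph receptors are the largest family of receptor tyrosine kinases. They bind ephrins on the surface of neighbouring cells. Ephrin-A ligands are held in the membrane by a lipid anchor, while ephrin-B ligands cross it, and EphA receptors bind mainly the former. Contact can signal into both cells, and the outcome is often repulsion, sorting of cells at tissue borders or a change in adhesion. In the lung the family is known for roles in vessels, epithelial barriers and mesenchyme. The kinase domains of the family are closely related, and the compound given here is aimed at EphB4. RNA levels say nothing of whether it bound an EphA receptor.

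The libraries held between 3556084 and 61947690 unique molecular identifiers (UMIs, each standing for 1 captured RNA molecule), and 44611 nuclei were kept. Nuclei were clustered without the Eph and ephrin genes and named from marker genes, which gave 19 cell classes. A class name is short for nuclei like that type, such as AT2 for those marked by Sftpc and Lamp3, AT1 by Ager and Rtkn2 and fibroblasts by Pdgfra and Col1a2. Levels are counts per 1000000 UMIs (CPM): UMIs of a gene, scaled to the total of that class in that library. Because nuclear UMIs also come from introns, and gene lengths differ, levels are compared between classes and groups for 1 gene, and not between genes. The Bleo_vehicle libraries stood apart from the rest. Their median mitochondrial share was 0.668 to 2.56%, against at most 0.05% in the other 9 libraries. They carry batch numbers 6 and 7, while the other groups carry run numbers 1 to 4, so in every comparison with Bleo_vehicle the batch and the treatment cannot be told apart. All 3 Bleo_NVP libraries are of run 4 and no PBS library is, so run and treatment cannot be told apart between Bleo_NVP and PBS_NVP either. The labels do not say what a run or batch number counts. Bleo_vehicle replicate 3 was the deepest library and the only one of batch 7. No 2 libraries shared more than 0.845% of the smaller library's barcodes.

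The members differed in how many cell classes held them. The receptor Epha3, known for roles in axon guidance and mesenchyme, was a fibroblast gene here. Its mean level was 371 ± 95 CPM in fibroblasts (SD, n = 12 libraries), and that class held 90.9% of its 14224 UMIs but 23.9% of all UMIs. Smooth muscle came next at 243 ± 130 CPM, with only 3 libraries of at least 20 nuclei, and was below fibroblasts in 2 of those 3. A UMI of Epha3 was found in 37.6% of fibroblast nuclei and 1.45% of alveolar macrophage nuclei, a class that should lack it, at median depths of 3146 and 2365.5 UMIs. After each nucleus was thinned to 500 UMIs the shares were 12.4% and 0.291%. Epha3 lies on chromosome 16 from 63543534 to 63864175 on the minus strand (GRCm38, GENCODE annotation, for all positions of genes given here).

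The receptor Epha7, best known from the developing nervous system, was an alveolar type 2 (AT2) gene. AT2 cells make surfactant and renew the alveolar epithelium. Epha7 reached 473 ± 192 CPM in AT2 nuclei (SD, n = 12), and AT2 nuclei held 76.9% of its 7811 UMIs against 8.72% of all UMIs. The next class, mesothelial cells at 54.9 CPM, was lower in 8 of 8 libraries. A UMI of Epha7 was seen in 37.6% of AT2 nuclei and 1.20% of alveolar macrophage nuclei, or 14.8% and 0.262% after thinning to 500 UMIs. The gene spans 28813131 to 28967499 of chromosome 4.

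The receptor Epha4, which binds ephrins of both the A and the B type, was spread over epithelium and endothelium. It reached 234 ± 68 CPM in arteries (SD, n = 10), 218 ± 59 CPM in alveolar type 1 (AT1) cells, the flat cells of gas exchange, and 183 ± 67 CPM in general capillaries (SD, n = 12 for both). These 3 classes were not separated by their spread: arteries exceeded AT1 in 7 of 10 libraries, and AT1 exceeded general capillaries in 7 of 12. All other classes had means of at most 68.8 CPM. AT1 nuclei held 59.7% of the UMIs of Epha4, which spans 77367185 to 77515088 of chromosome 1.

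Epha2, an epithelial receptor found at cell junctions, had its highest means in club cells (67.5 ± 35.1 CPM), AT1 cells (57.4 ± 35.1 CPM) and AT2 cells (54.5 ± 35.7 CPM; SD, n = 12 for each), with differences between these means smaller than the SD. Club cells were above AT1 cells in 10 of 12 libraries, and AT1 above AT2 cells in 8 of 12. Endothelium came close behind, with veins at 47.9 CPM and aerocyte capillaries at 45.0 CPM, and AT2 cells exceeded veins in only 6 of 12 libraries. After thinning to 500 UMIs, 2.66% of club nuclei and 2.68% of aerocyte nuclei held a UMI of Epha2, so it was not confined to epithelium. Epha1, on chromosome 6 from 42358487 to 42373268, was sparse, with 1213 UMIs over all libraries. Its highest class was fibroblasts at 20.2 ± 9.3 CPM (SD, n = 12), followed by club cells at 11.01 ± 6.4 CPM, which were lower in 10 of 12 libraries. Epha5 had 321 UMIs in all and a mean of at most 3.99 CPM in any class, and its leading classes, club cells, fibroblasts and general capillaries, did not separate.

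Of the ligands, Efna5, on chromosome 17 from 62604184 to 62881317, was the most widespread. It peaked in mesothelial cells, which line the pleura, at 3656 ± 1200 CPM (SD, n = 8). Lymphatic endothelium followed at 1150 ± 841 CPM and was lower in 5 of 5 libraries. Arteries (888 ± 439 CPM, n = 10), neuroendocrine cells (658 ± 110 CPM, n = 3) and club cells (605 ± 118 CPM, n = 12) came next and did not separate from each other. Fibroblasts, at 265 ± 70 CPM, were below club cells in 12 of 12 libraries. Efna1, a ligand first described in endothelial cells and encoded on chromosome 3 from 89271733 to 89281142, led in arteries at 104 ± 45 CPM (SD, n = 10) and was higher there than in AT1 cells in 10 of 10 libraries. Efna2 and Efna4 were near the limit of detection, with 214 and 212 UMIs over all 12 libraries. The highest mean of Efna4, 5.55 CPM in AT2 cells, rested on 65 UMIs, and that of Efna2, 17.5 CPM in smooth muscle, on 6 UMIs. In the whole lung, Bleo_vehicle replicate 1 had 0 UMIs of Efna2 among 4285547, which allows a level of up to 0.70 CPM, counting error only.

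**Figure D1:**
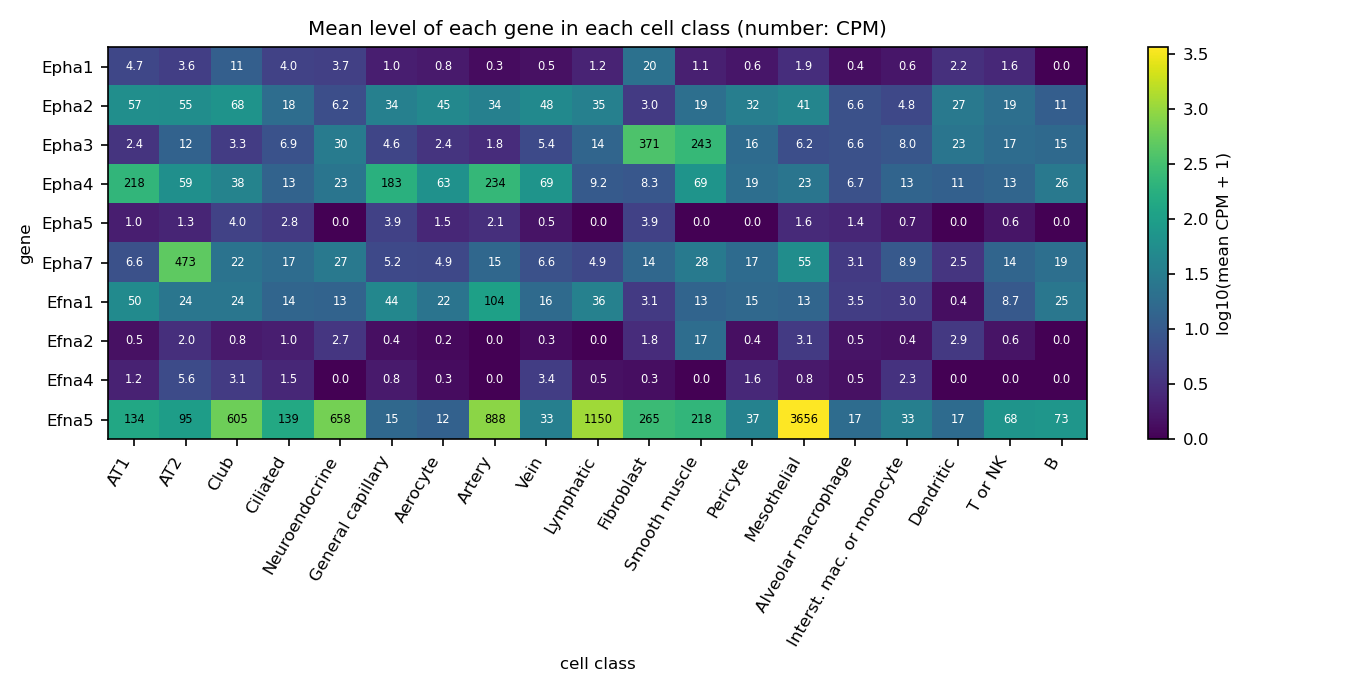
Mean level of each of the 10 genes (rows) in each named cell class (columns) over the libraries with at least 20 nuclei of that class, with the number in each cell in CPM and the colour on a log10 scale of the mean plus 1. Epha3 stands out in fibroblasts (371 CPM), Epha7 in AT2 cells (473 CPM) and Efna5 in mesothelial cells (3656 CPM).

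The genes with the most similar pattern over the 19 classes were named by the correlation of log2(mean CPM + 1), as a description without a test. The classes share libraries and differ in depth. Epha3 was closest to Itga8, Gria1 and Nox4 (r = 0.96, 0.95 and 0.91). Epha7 was closest to Zfp385b, Exosc7 and Prmt8 (r = 0.86, 0.86 and 0.84) and Epha4 to Shroom4, Fnbp1l and Rnf19a (r = 0.82, 0.82 and 0.81). Efna1 was closest to Ptprm, Tjp1 and Tead4 (r = 0.85, 0.80 and 0.80) and Efna5 to Mphosph8, Tenm3 and Zmat1 (r = 0.82, 0.81 and 0.81). The 4 sparse members had neighbours as well, Tada2a, Gtf3c1 and Nebl for Epha1 (r = 0.79 for each), Snhg9, Fbxo9 and Dgcr8 for Epha5 (r = 0.70, 0.69 and 0.69), Sh3bgr, Grin2a and Npy1r for Efna2 (r = 0.92, 0.91 and 0.90) and Slc25a10, Ap5s1 and Atp6v1g1 for Efna4 (r = 0.73, 0.72 and 0.72). The pattern of Efna2 peaked in smooth muscle at 17.5 CPM, beside 3.05 CPM in the next class. Only 5 of 276 smooth muscle nuclei held a UMI of it, so its r values rest on few molecules.

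Does bleomycin, with or without the inhibitor, change these genes? In the whole lung, where all nuclei of a library were summed, 1 of the 10 members differed between Bleo_vehicle and PBS_vehicle, against 2.44% of the 14442 genes tested (edgeR quasi-likelihood test, Benjamini-Hochberg adjusted p under 0.05). It was lower, as were 0.595% of genes. Between Bleo_NVP and Bleo_vehicle 2 of 10 differed, against 5.51% of genes. Both were higher, as were 1.96% of genes. A share in the summed lung can move with the number of cells of a type or with RNA per cell, and these cannot be told apart. Both comparisons share the Bleo_vehicle libraries, so a value that is extreme in that group moves both in opposite directions. No member differed between PBS_NVP and PBS_vehicle, or between Bleo_NVP and PBS_NVP, and neither did any other gene (0%) by edgeR. No member had an unadjusted p under 0.05 in either, and DESeq2 also called none. For PBS_NVP against PBS_vehicle the log2 differences of the receptors were 0.10 (Epha1), 0.25 (Epha2), 0.11 (Epha3), -0.06 (Epha4), -0.18 (Epha5) and -0.06 (Epha7), and those of the ligands 0.06 (Efna1), 0.37 (Efna2), -0.35 (Efna4) and 0.18 (Efna5). For Bleo_NVP against PBS_NVP they were -0.25, -0.07, 0.28, 0.36, 0.55 and 0.05 for the receptors in the same order, and -0.62, -0.25, 0.73 and -0.06 for the ligands. The interaction, which asks whether the inhibitor acted differently after bleomycin than after PBS, called 0 of 10 members against 0.298% of genes (lowest edgeR adjusted p = 0.284, and 2 unadjusted p under 0.05). In the same order its values were 1.01, -1.09, 1.06, 0.05, 0.65 and 0.71 for the receptors and -0.22, -0.52, -0.24 and -0.28 for the ligands. A difference in the effect of the inhibitor between bleomycin and PBS was therefore not shown for any member.

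**Figure D2:**
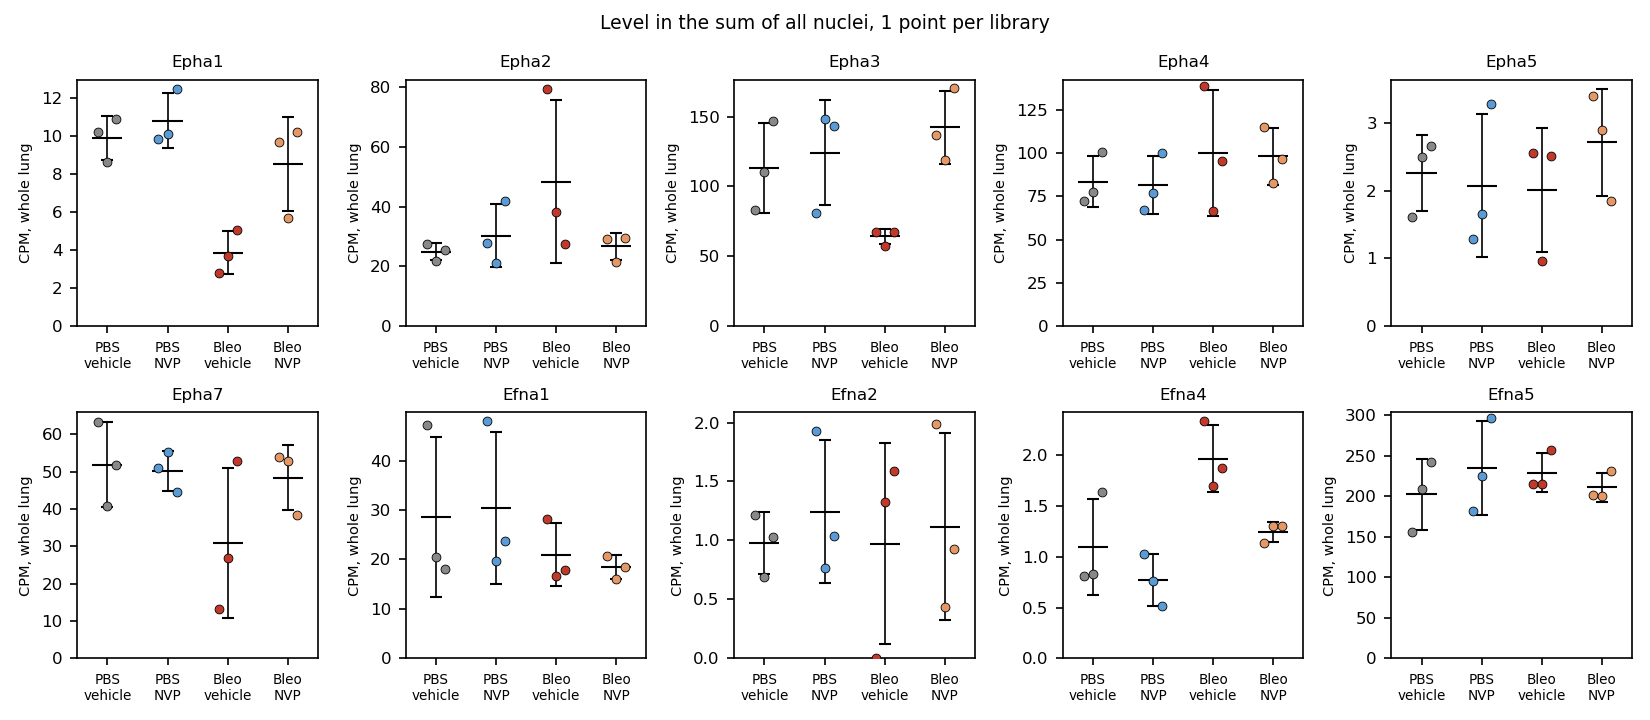
Level of each of the 10 genes in the whole lung of each mouse (points), in CPM of all kept nuclei, by group, with the mean and SD as lines and an axis of its own for each gene. The 3 Bleo_vehicle lungs lie below all others for Epha1 (2.80 to 5.04 CPM) and Epha3 (57.7 to 67.7 CPM).

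Epha1, the first described member of the family, fell in Bleo_vehicle. Its whole-lung level was 10.2, 8.60 and 10.9 CPM in PBS_vehicle, 9.82, 10.1 and 12.4 CPM in PBS_NVP, 2.80, 3.68 and 5.04 CPM in Bleo_vehicle and 9.65, 5.66 and 10.2 CPM in Bleo_NVP. The Bleo_vehicle libraries lay below every library of the other groups, as was so for 20.3% of genes against PBS_vehicle in one direction or the other. The log2 change was -1.25 ± 0.27 (SE) against PBS_vehicle (edgeR adjusted p = 0.036) and 1.10 ± 0.28 for Bleo_NVP against Bleo_vehicle (edgeR adjusted p = 0.042). Both calls were close to the threshold. The first was lost without any 1 of PBS_vehicle 1, 2 or 3, PBS_NVP 2, Bleo_vehicle 1 or 2, or Bleo_NVP 1 or 3 (edgeR adjusted p = 0.055 to 0.141). The second was lost without PBS_vehicle 2, PBS_NVP 2 or 3, Bleo_vehicle 1 or 2, or Bleo_NVP 1 or 3 (edgeR adjusted p = 0.051 to 0.167).

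Within fibroblasts, whose nuclei are part of the whole-lung sums, Epha1 fell as well. There the level was 29.2, 20.3 and 28.5 CPM in PBS_vehicle, 28.6, 20.6 and 28.4 CPM in PBS_NVP, 3.55, 5.17 and 12.2 CPM in Bleo_vehicle and 27.0, 14.1 and 24.9 CPM in Bleo_NVP. Bleo_vehicle did not overlap any other group (groups did not overlap for 20.6% of genes against PBS_vehicle and 28.6% against Bleo_NVP), and the other groups overlapped each other. The log2 change was -1.69 ± 0.35 (SE) against PBS_vehicle (edgeR adjusted p = 0.0147) and 1.48 ± 0.36 for Bleo_NVP against Bleo_vehicle (edgeR adjusted p = 0.0266), in a class where 4.74% and 7.29% of genes were called. The interaction was 1.53 ± 0.48 and did not pass (edgeR adjusted p = 0.173). The first call was lost without PBS_vehicle 3 or Bleo_vehicle 2 (edgeR adjusted p = 0.061 and 0.069) and the second without Bleo_vehicle 2, Bleo_NVP 1 or Bleo_NVP 3 (edgeR adjusted p = 0.099 to 0.105).

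The fibroblasts of Bleo_vehicle also differed in make-up. Alveolar fibroblasts, subcluster 0 with 3685 nuclei, made up 47.1% of fibroblast nuclei in PBS_vehicle, 45.2% in PBS_NVP, 20.3% in Bleo_vehicle (2.26 to 36.5%) and 42.7% in Bleo_NVP. Fibrotic fibroblasts, subcluster 3 with 918 nuclei, made up 5.92%, 7.07%, 17.4% (9.57 to 30.7%) and 6.90%. Epha1 was itself among the leading genes of the alveolar subcluster, although it was not used for clustering. Its mean level was 29.3 ± 10.8 CPM there (SD, n = 11), 10.8 ± 7.3 CPM in the fibrotic subcluster (n = 11) and 0.47 ± 1.10 CPM in adventitial fibroblasts (n = 11). Within the alveolar subcluster it stood at 42.3, 28.9 and 35.4 CPM in PBS_vehicle and at 8.23 and 18.3 CPM in Bleo_vehicle 2 and 3, since Bleo_vehicle 1 had under 20 such nuclei. The difference there was -1.29 ± 0.34 on the log2 scale and did not pass (edgeR adjusted p = 0.070). In the fibroblast class as a whole, 8 alveolar fibroblast markers summed to 7113 to 8242 CPM in PBS_vehicle and 3304 to 6044 CPM in Bleo_vehicle, none of them at 0. Also, 8 AT2 markers summed to 105 to 291 CPM and 341 to 1253 CPM. Their part in the change of Epha1 was not tested.

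Epha1 lies on the minus strand and overlaps Zyx and the antisense transcript 2010310C07Rik on the other strand. The strand setting of the counting is not given in the sources used here. In fibroblasts, Zyx ranged from 58.6 to 96.5 CPM in PBS_vehicle and from 36.1 to 90.0 CPM in Bleo_vehicle, which overlap. The antisense transcript was at 21.2 to 51.2 CPM in PBS_vehicle, 21.0 to 54.3 CPM in PBS_NVP, 1.18 to 15.8 CPM in Bleo_vehicle and 32.4 to 52.4 CPM in Bleo_NVP. Like Epha1 it was lowest in Bleo_vehicle. Within PBS_vehicle it did not follow Epha1, since it was lowest in replicate 1 (21.2 CPM), where Epha1 was highest.

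Epha3 was the other receptor that differed in the whole lung. Its level was 82.8, 110.5 and 146.8 CPM in PBS_vehicle, 80.8, 148.7 and 143.2 CPM in PBS_NVP, 67.2, 57.7 and 67.7 CPM in Bleo_vehicle and 137.2, 119.2 and 170.6 CPM in Bleo_NVP. All 3 Bleo_NVP lungs were above all 3 Bleo_vehicle lungs, as was so in one direction or the other for 32% of genes. The log2 change was 1.17 ± 0.29 (SE) for Bleo_NVP against Bleo_vehicle (edgeR adjusted p = 0.039) and -0.78 ± 0.29 for Bleo_vehicle against PBS_vehicle, which did not pass (edgeR adjusted p = 0.175). The call was lost without PBS_vehicle 2, Bleo_vehicle 1 or 2, or any 1 Bleo_NVP library (edgeR adjusted p = 0.055 to 0.146). Fibroblasts were 21.4% of nuclei in Bleo_vehicle and 25.8% in Bleo_NVP. Within fibroblasts Epha3 was at 295, 201 and 310.2 CPM in Bleo_vehicle and 415, 361 and 556 CPM in Bleo_NVP, a log2 difference of 0.82 ± 0.24 that did not pass (edgeR adjusted p = 0.053).

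By subcluster, Epha3 was expressed in all 6 of the larger fibroblast subclusters, at means of 263 to 408 CPM. In alveolar fibroblasts it was at 222 and 299.5 CPM in Bleo_vehicle 2 and 3, and at 443, 413 and 663 CPM in Bleo_NVP. The log2 change there was 1.01 ± 0.24 (edgeR adjusted p = 0.037), against 2.29% of genes called. It was lost without PBS_vehicle 2, Bleo_vehicle 2 or 3, or Bleo_NVP 1 or 3 (edgeR adjusted p = 0.051 to 0.303). In subcluster 1, an unnamed one led by mitochondrial transcripts, Epha3 was at 312, 359 and 541 CPM in PBS_vehicle and 97.9, 161 and 229 CPM in Bleo_vehicle, and changed by -1.01 ± 0.26 (log2, edgeR adjusted p = 0.042, against 1.93% of genes called). That call was lost without PBS_vehicle 2 or 3 or Bleo_vehicle 1 or 2 (edgeR adjusted p = 0.067 to 0.216). In the fibrotic subcluster the difference between these groups was 0.26 ± 0.37, which did not pass.

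**Figure D3:**
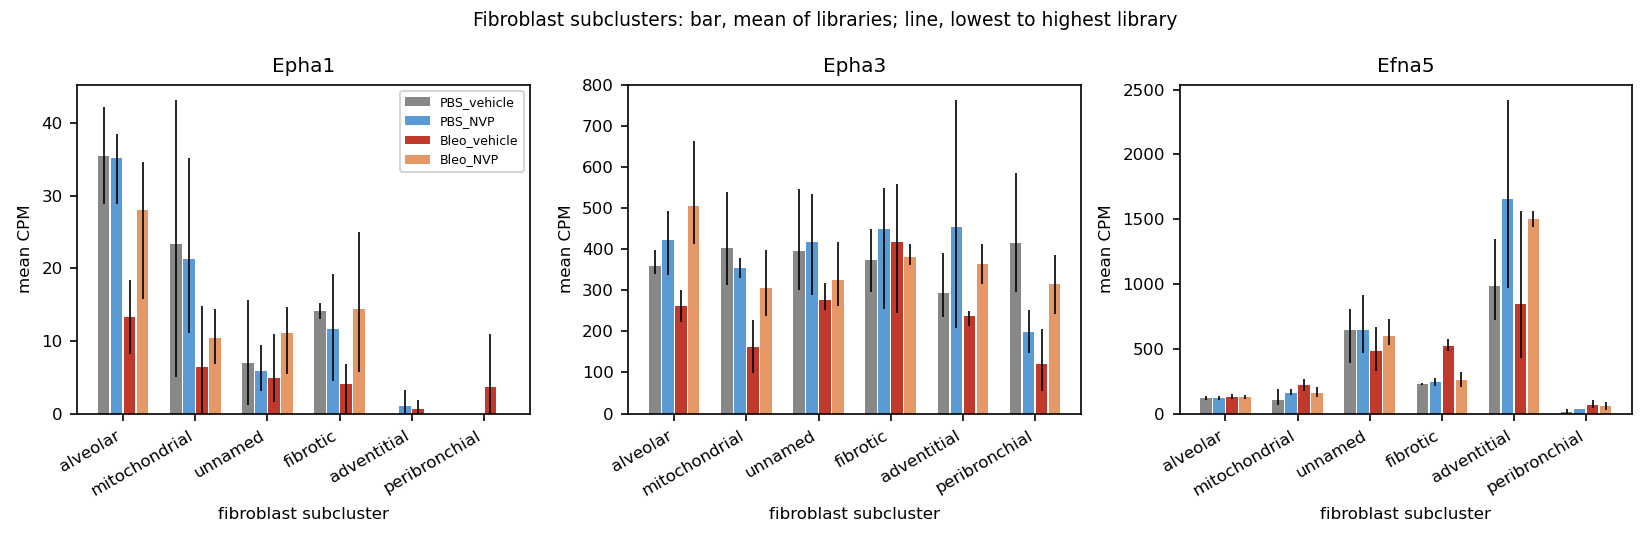
Levels of Epha1, Epha3 and Efna5 in CPM by fibroblast subcluster and group, with bars for the mean over the 2 or 3 libraries of at least 20 nuclei and lines from the lowest to the highest library. Epha1 is highest in the alveolar subcluster (29.3 CPM on average), and Efna5 in the fibrotic subcluster is highest in the 3 Bleo_vehicle libraries (485.5 to 575 CPM).

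The sequences just before the start of Epha1 and Epha3 are shown because these receptors were the members called in the whole lung. They are the 250 bases before the start in RefSeq, GRCm38.p6, 5′ to 3′ on the strand of the gene, where all 10 members had a match. For Epha1 the window is chr6:42373269-42373518 and for Epha3 chr16:63864176-63864425, both on the minus strand. Capitals mark the TEAD motif GGAATG or its reverse complement.
Epha1: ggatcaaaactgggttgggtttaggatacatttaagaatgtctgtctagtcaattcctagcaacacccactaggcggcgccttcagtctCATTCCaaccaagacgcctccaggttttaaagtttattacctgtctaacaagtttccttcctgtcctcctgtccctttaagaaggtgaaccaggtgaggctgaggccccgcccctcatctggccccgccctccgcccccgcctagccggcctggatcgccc
Epha3: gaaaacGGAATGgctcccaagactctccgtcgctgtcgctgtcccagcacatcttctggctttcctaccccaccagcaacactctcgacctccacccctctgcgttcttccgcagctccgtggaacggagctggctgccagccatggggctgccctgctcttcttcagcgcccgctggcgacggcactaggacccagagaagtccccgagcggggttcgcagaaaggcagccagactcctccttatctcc

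Both strands of each window were searched for 4 motifs. The TEAD motif was GGAATG. For the factor AP-1 the letters were TGANTCA, for the E-box they were CACGTG, and for the TATA box they were TATAAA. In the member windows only TEAD letters matched, so no motif overlapped another. The TEAD letters begin 161 bases before the start of Epha1 and 244 before that of Epha3, and Epha2 also holds them. None of the 4 motifs was in the windows of the other 7 members. Of 32851 windows of this length, 12.6% hold the TEAD letters, 6.75% those of AP-1, 6.02% the E-box and 12.4% the TATA box. A match is a string of letters and not a measured site. The GC content was 54.4% for Epha1 and 62.8% for Epha3, beside a median of 52.4% over all windows.

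Over the cell classes, 34 pairs of a member and a class had enough counts to test, from 1 class each for Epha3 and Epha5 to 8 for Epha4, and none for Efna2 and Efna4. Between Bleo_vehicle and PBS_vehicle 4 pairs were called, 3 higher and 1 lower, which is 4 of 34 against 3.49% of all 64500 gene and class pairs. Between Bleo_NVP and Bleo_vehicle 2 were called, both higher, against 4.18%. The pairs are not independent, since classes share libraries. The inhibitor after PBS gave 0 calls, as did Bleo_NVP against PBS_NVP (0% of all pairs in both), with 2 and 4 pairs at an unadjusted p under 0.05, and DESeq2 gave 0 too. The interaction gave 0 calls against 0.46%, with 7 pairs at an unadjusted p under 0.05 and a lowest edgeR adjusted p of 0.173.

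**Figure D4:**
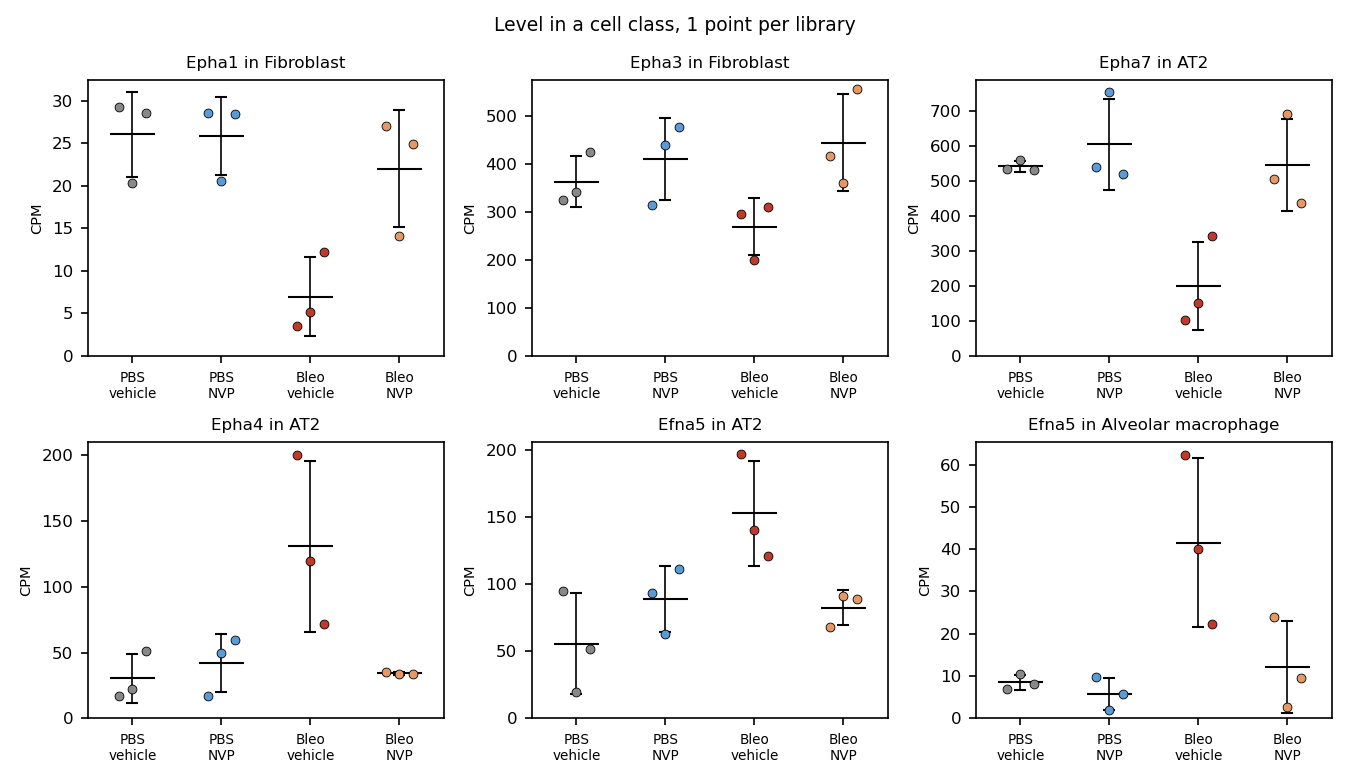
Levels by library (points), in CPM, for 6 pairs of a gene and a cell class described in the text, by group, with the mean and SD as lines. Bleo_vehicle lies below every other library for Epha1 in fibroblasts (3.55 to 12.2 CPM) and Epha7 in AT2 cells (104 to 342 CPM), and above both PBS groups for Efna5 in alveolar macrophages (22.3 to 62.2 CPM).

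AT2 cells held 3 of these 6 calls. Epha7, the receptor that marks them here, stood at 533, 561 and 532 CPM in PBS_vehicle, 540.1, 754 and 519 CPM in PBS_NVP, 104, 152 and 342 CPM in Bleo_vehicle and 507, 691 and 436 CPM in Bleo_NVP. Each Bleo_vehicle library was below every other library, and 23% of genes in this class did not overlap between Bleo_vehicle and PBS_vehicle and 26.2% between Bleo_NVP and Bleo_vehicle. The log2 difference from PBS_vehicle was -1.25 ± 0.32 (SE) and just missed the threshold (edgeR adjusted p = 0.055), and that of Bleo_NVP against Bleo_vehicle was 1.29 ± 0.33 and passed (edgeR adjusted p = 0.046), with 3.28% and 4.04% of genes called in AT2 cells. The call was lost without PBS_vehicle 1, 2 or 3, PBS_NVP 1 or 3, Bleo_vehicle 1 or 2, or any 1 Bleo_NVP library (edgeR adjusted p = 0.053 to 0.168). Without Bleo_vehicle 3, both comparisons passed, with log2 changes of -1.89 and 1.93.

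Epha4 and Efna5 rose in the same cells. Epha4 in AT2 cells was at 17.1, 22.4 and 51.5 CPM in PBS_vehicle, 17.1, 50.0 and 59.4 CPM in PBS_NVP, 201, 120.0 and 72.1 CPM in Bleo_vehicle and 35.5, 33.5 and 33.3 CPM in Bleo_NVP. The log2 change was 2.34 ± 0.55 (SE) against PBS_vehicle (edgeR adjusted p = 0.0416) and -1.94 ± 0.57 for Bleo_NVP against Bleo_vehicle, which did not pass (edgeR adjusted p = 0.077). All 3 Bleo_vehicle libraries were above those of the other groups. Efna5 was at 95.2, 19.9 and 51.5 CPM in PBS_vehicle, 93.4, 62.5 and 111 CPM in PBS_NVP, 197, 140.1 and 121 CPM in Bleo_vehicle and 67.8, 90.9 and 88.9 CPM in Bleo_NVP. Here too the Bleo_vehicle libraries were the highest. Its change was 1.37 ± 0.35 against PBS_vehicle (edgeR adjusted p = 0.0498) and -0.92 ± 0.37 for Bleo_NVP against Bleo_vehicle (edgeR adjusted p = 0.178). The call of Epha4 was lost without PBS_vehicle 1 or 2, Bleo_vehicle 1 or 2, or any 1 Bleo_NVP library (edgeR adjusted p = 0.057 to 0.160). That of Efna5 was lost without 10 of the 12 libraries left out in turn, all but PBS_vehicle 1 and Bleo_vehicle 3 (edgeR adjusted p = 0.059 to 0.143).

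Markers of other cells moved with these values in the AT2 class. The 8 AT1 markers summed to 301 to 859 CPM in PBS_vehicle, 1024 to 1312 CPM in Bleo_vehicle and 332 to 528 CPM in Bleo_NVP, and the 8 AT2 markers to 13574 to 14299.7 CPM, 4896 to 11857 CPM and 12674 to 14686.5 CPM. The 7 club cell markers summed to 130.2 to 579 CPM in PBS_vehicle, 351 to 1152 CPM in Bleo_vehicle and 71.0 to 206 CPM in Bleo_NVP, so the first 2 of these groups overlapped. None of the AT1 or AT2 markers was at 0. Epha4 was higher in AT1 cells and Efna5 in club cells than in AT2 cells, and the part of such cells or of free RNA in the differences was not tested. A UMI of Epha4 was seen in 44.8% of AT1 nuclei and 8.87% of AT2 nuclei, or 8.30% and 2.15% after thinning to 500 UMIs.

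In alveolar macrophages, the phagocytes of the airspace, Efna5 was low in all groups and rose in Bleo_vehicle. It was at 6.93, 10.5 and 8.07 CPM in PBS_vehicle, 9.67, 2.02 and 5.79 CPM in PBS_NVP, 62.2, 40.1 and 22.3 CPM in Bleo_vehicle and 23.9, 2.57 and 9.63 CPM in Bleo_NVP. These rest on 15, 4 and 2 UMIs, on 28, 1 and 2, on 37, 36 and 65 and on 4, 1 and 3. No PBS library was above 10.5 CPM, so Efna5 passed the filter on low counts through bleomycin libraries. They included Bleo_vehicle 1 and 2, where it was highest, so the call that follows is not independent of the filter. The change against PBS_vehicle was 2.47 ± 0.61 (log2, SE; edgeR adjusted p = 0.0205), in a class where 6.67% of genes were called and 24.3% did not overlap, and -2.15 ± 0.68 for Bleo_NVP against Bleo_vehicle (edgeR adjusted p = 0.085). The call was lost without PBS_vehicle 1 (edgeR adjusted p = 0.151). It was kept in 9 of the 10 fits without 1 library in which Efna5 was tested, of 12 such fits. In the same nuclei the 8 AT2 markers summed to 198 to 241 CPM in PBS_vehicle and 501 to 1606 CPM in Bleo_vehicle, the 7 club markers to 76.1 to 330.2 and 412 to 1013 CPM, and the 7 fibroblast markers to 7.87 to 26.3 and 126 to 252 CPM. Their part in the change of Efna5 was not tested.

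In fibroblasts as a class Efna5 differed by 0.51 ± 0.26 (log2, SE) and did not pass (edgeR adjusted p = 0.315). In the fibrotic subcluster, however, it stood at 238 and 221 CPM in 2 PBS_vehicle libraries, 278, 209 and 250.1 CPM in PBS_NVP, 575, 485.5 and 497 CPM in Bleo_vehicle and 251, 207 and 321.5 CPM in Bleo_NVP. The 3 Bleo_vehicle libraries were the highest of the 11, and 34.3% and 22.1% of genes did not overlap in the 2 comparisons. The log2 change was 1.24 ± 0.27 (SE) against PBS_vehicle (edgeR adjusted p = 0.021) and -1.06 ± 0.25 for Bleo_NVP against Bleo_vehicle (edgeR adjusted p = 0.022), where 2.25% and 2.45% of genes were called. The first was lost without PBS_vehicle 1 or 3 or Bleo_vehicle 1 or 2 (edgeR adjusted p = 0.052 to 0.157), and the second without Bleo_vehicle 1 or 2 or Bleo_NVP 1 or 2 (edgeR adjusted p = 0.055 to 0.125). A rise was not particular to the fibrotic subcluster. In subcluster 1 the log2 difference from PBS_vehicle was 1.34 ± 0.36 (SE) and just missed the threshold (edgeR adjusted p = 0.057). For Bleo_NVP against Bleo_vehicle it was -0.61 ± 0.35 there and did not pass. In subclusters 0, 2 and 4 the differences from PBS_vehicle were 0.08, -0.31 and -0.01. Adventitial fibroblasts had the highest level of Efna5 of the 6 larger subclusters, 1223 ± 581 CPM (SD, n = 11).

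The remaining members and classes did not pass. Epha2 in AT1 cells was at 42.5, 31.3 and 49.6 CPM in PBS_vehicle and 162, 73.5 and 51.6 CPM in Bleo_vehicle, a log2 difference of 1.23 ± 0.39 (SE, edgeR adjusted p = 0.102). In the whole lung the difference of Epha2 was 1.01 ± 0.37 (edgeR adjusted p = 0.165), with Bleo_vehicle at 79.3, 38.3 and 27.4 CPM beside 21.8 to 27.5 CPM in PBS_vehicle. Epha4 in general capillaries was at 203, 171 and 266 CPM in PBS_vehicle and 105 and 184 CPM in Bleo_vehicle 2 and 3, with only 3 UMIs in Bleo_vehicle 1 (log2 -0.66 ± 0.34, edgeR adjusted p = 0.396). Epha7 in the whole lung was at 63.2, 40.6 and 51.7 CPM in PBS_vehicle, 50.9, 55.2 and 44.4 CPM in PBS_NVP, 13.3, 26.7 and 52.8 CPM in Bleo_vehicle and 54.0, 52.9 and 38.2 CPM in Bleo_NVP. Its log2 difference was -0.66 ± 0.34 (SE) for Bleo_vehicle against PBS_vehicle (edgeR adjusted p = 0.322) and 0.65 ± 0.34 for Bleo_NVP against Bleo_vehicle (edgeR adjusted p = 0.250). In the whole lung Epha4 and Efna5 in Bleo_vehicle differed from PBS_vehicle by 0.31 ± 0.28 and 0.22 ± 0.22, with 95% intervals of -0.29 to 0.91 and -0.26 to 0.70. For Epha5 the interval was -1.17 to 0.97, for Efna2 -1.15 to 1.69, for Efna1 -1.19 to 0.39 and for Efna4 0.10 to 1.83 (edgeR adjusted p = 0.216). For Bleo_NVP against Bleo_vehicle the log2 differences of these were -0.84 (Epha2), -0.01 (Epha4), 0.47 (Epha5), -0.15 (Efna1), -0.15 (Efna2), -0.58 (Efna4) and -0.10 (Efna5), and none passed.

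Several of these values depended on Bleo_vehicle replicate 3. Without that library 3 and 4 members were called in the whole lung in the comparisons with PBS_vehicle and with Bleo_NVP, and 11 and 10 pairs in the classes. The shares of all genes called in these fits are not given here, so the counts are not a result about the members. With 1 library left out at a time, up to 1321 and 2231 genes were called in the whole lung, beside 352 and 796 with all 12. Newly called in the whole lung were Epha2 (1.32 against PBS_vehicle, -1.15 for Bleo_NVP against Bleo_vehicle) and Epha7 (-1.25 and 1.23). Of the class pairs, 5 were newly called in both comparisons. These were Epha2 in AT1 cells (1.54 and -1.34), in AT2 cells (1.56 and -1.43) and in fibroblasts (3.39 and -2.88), and Epha4 (-1.27 and 1.23) and Efna5 (3.91 and -3.10) in general capillaries. Epha7 in AT2 cells and Epha5 in fibroblasts (-3.24) were newly called against PBS_vehicle only. For Bleo_NVP against Bleo_vehicle only, the new calls were Epha3 in fibroblasts (0.94), Epha4 in AT2 cells (-2.28) and Efna5 in alveolar macrophages (-2.55). The interaction then passed for 3 pairs, Epha7 in AT2 cells (1.79) and Epha1 (2.32) and Epha2 (-4.72) in fibroblasts. Some pairs were sparse. Over all 12 libraries, 94 of 9779 fibroblast nuclei held a UMI of Epha2 and 68 one of Epha5. Efna5 had a UMI in 2.65% of general capillary nuclei. Bleo_vehicle 1 and 2, which remained, are both of batch 6, with median mitochondrial shares of 2.56% and 1.32%. In general capillaries the 8 AT2 markers summed to 188 to 408 CPM in PBS_vehicle and 513 to 2632 CPM in Bleo_vehicle. Their part was not tested.

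Efna1 differed among the PBS libraries by run number. Run 1 held PBS_vehicle 1 and PBS_NVP 1, whose whole-lung levels were 47.1 and 48.0 CPM, while the other 4 PBS libraries lay between 18.04 and 23.7 CPM. The ratio of means was 2.33. In AT1 cells the run 1 libraries were at 103 and 106 CPM, the other PBS libraries at 34.0 to 50.1 CPM and the 6 bleomycin libraries at 27.6 to 56.8 CPM. In arteries the values were 172 and 175 CPM beside 82.5 to 92.8 CPM, and in general capillaries 81.9 and 87.4 CPM beside 35.1 to 48.9 CPM. Both run 1 libraries were above every other PBS library in 11 of 16 classes. They overlapped in the other 5, which were club, ciliated, lymphatic and B cells and alveolar macrophages, for example at 26.0 and 34.5 CPM beside 7.10 to 38.9 CPM in club cells. Some of the 11 rest on few UMIs. Interstitial macrophages or monocytes, pericytes and T or NK cells had 6, 24 and 6 UMIs in run 1 beside 0 in the other PBS libraries. Veins had 47 beside 1. Run 1 also held the 2 deepest PBS libraries, 24232077 and 34750439 UMIs beside 4971534 to 8051322, and the part of run and depth in the difference was not tested. Of 8507 genes with at least 10 CPM on average, 58 (0.682%) were at least 2 times higher in both run 1 libraries than in every other PBS library, and 19 (0.223%) were lower by that much. Efna1, with a ratio of 1.99 between its lower run 1 library and the highest other PBS library, was just outside the 58. Each PBS group had 1 library of run 1, and Efna1 averaged 28.6 ± 16.1 CPM in PBS_vehicle and 30.4 ± 15.4 CPM in PBS_NVP (SD, n = 3). With the inhibitor the log2 difference was 0.06 ± 0.36 in the PBS lungs and -0.15 ± 0.37 in the bleomycin lungs, and neither passed.

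**Figure D5:**
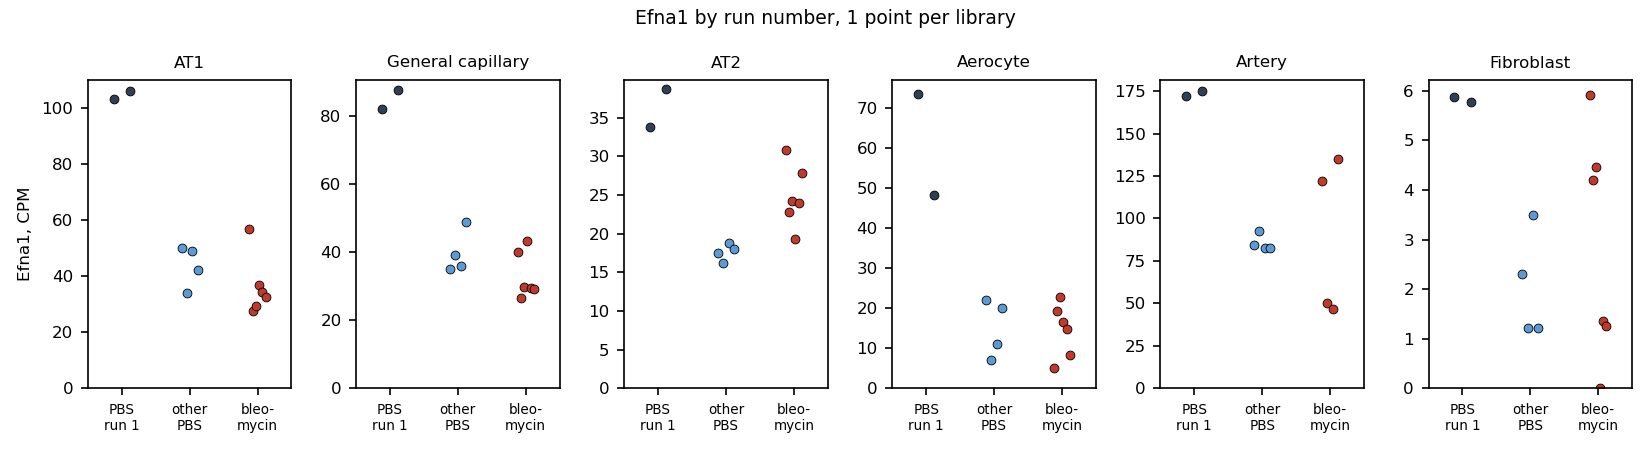
Level of Efna1 in CPM for each library (points) in 6 of the 11 cell classes where run 1 stood apart, with the PBS libraries of run 1, the other PBS libraries and the bleomycin libraries side by side, and libraries under 20 nuclei of a class left out. In the 6 classes shown the 2 PBS libraries of run 1 are above the other PBS libraries, in AT1 cells at 103 and 106 CPM beside 34.0 to 50.1 CPM.

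Other genes of the pathway were followed with a list of 50 genes: 12 other Eph and ephrin genes, 36 adaptors, exchange factors and kinases downstream, and 2 proteases that cut ephrins or their receptors. In the whole lung 45 were tested. Between Bleo_vehicle and PBS_vehicle 2 were higher and 0 lower, Kalrn (0.69) and Vav2 (0.63), both guanine nucleotide exchange factors, which is 2 of 45 against 2.44% of all genes. The list's median log2 difference was -0.05 beside 0.01 for all genes. Between Bleo_NVP and Bleo_vehicle 0 were higher and 3 lower, the membrane protease Mmp14 (-1.58), Kalrn (-0.74) and Vav2 (-0.72), with a median of -0.11 beside -0.05. These are 3 of 45 against 5.51%, so both counts were near the background. The other 3 comparisons called 0 of the 45. None of the 7 other Eph and ephrin genes tested in the whole lung was called in any comparison. Within a cell class, Efnb2 was called in ciliated cells, lower in Bleo_NVP than in Bleo_vehicle (-1.93, edgeR adjusted p = 0.034). In that comparison 4.18% of all gene and class pairs were called.

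Ephb4, the labelled target of the inhibitor, did not differ detectably at the RNA level. Its whole-lung log2 difference was 0.00 ± 0.28 (SE) for Bleo_vehicle against PBS_vehicle and -0.37 ± 0.29 for Bleo_NVP against Bleo_vehicle (edgeR adjusted p = 0.434). Ephb4 was highest in veins (265 ± 72 CPM, SD, n = 12) and general capillaries (161 ± 42 CPM, n = 12), and was at 15.6 ± 3.6 CPM in fibroblasts. In fibroblasts, 42 genes of the list were tested, where 4.74% and 7.29% of all genes were called in the 2 comparisons with Bleo_vehicle. Vav3 was higher in Bleo_vehicle than in PBS_vehicle (1.83), and in Bleo_NVP against Bleo_vehicle Tiam1 (1.11) and the kinase Fyn (0.90) were higher and Vav3 (-1.67) and Ngef (-1.31), an exchange factor that binds EphA receptors, were lower. In AT2 cells, 30 were tested and 1 was called, Kalrn, lower in Bleo_NVP (-1.11), against 4.04% of genes. In AT1 cells, 42 were tested. Kalrn (2.10) and Mmp14 (1.17) were higher and Chn1 (-0.97) was lower in Bleo_vehicle than in PBS_vehicle, against 4.84% of genes. Chn1 (1.18) and Rasa1 (0.60) were higher and Kalrn (-2.79) and Vav2 (-1.42) lower in Bleo_NVP than in Bleo_vehicle, against 5.75%. In alveolar macrophages, 25 were tested. Kalrn (2.65) and Ptk2 (2.30) were higher and Rock2 (-0.71) was lower in Bleo_vehicle than in PBS_vehicle, against 6.67% of genes, and Kalrn (-4.32) and Ptk2 (-2.03) were lower in Bleo_NVP than in Bleo_vehicle, against 4.23%. Calls were not confined to these classes. Kalrn was called in both comparisons, in the same directions, in aerocytes, general capillaries, ciliated cells and club cells. Fyn was lower in Bleo_NVP than in Bleo_vehicle in club (-3.34) and ciliated cells (-2.57), opposite to fibroblasts.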

How the data were processed

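Per the labels, nuclei from 12 frozen lungs were made into libraries with a 10x Genomics 3′ kit (v3.1). The submitters' processing notes name Cell Ranger 7.0, Seurat 4.4.1 and mm10, and the file headers name version 7.2.0. The authors deposited raw UMI counts per gene and barcode for each library, and these counts were used. The study also corrected for free RNA and called doublets with other tools, which was not repeated.

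Barcodes with 200 to 6000 genes and at most 5% mitochondrial UMIs were kept (47319 of 49163). Simulated doublets were then used to call 2708 (5.72%), at a rate of 0.8% per 1000 nuclei, leaving 44611. Clusters came from 2000 variable genes without the Eph and ephrin genes, 30 components, Harmony, 20 neighbours and Leiden resolution 1.0 (scanpy 1.11.5, scikit-learn 1.9.0, leidenalg 0.10.2, Python 3.11.15). Fibroblasts were clustered again at 20 components and resolution 0.4. Markers named the clusters. UMIs were summed per library and class of at least 20 nuclei and tested with edgeR 4.0.16 (R 4.3.3), using TMM, filterByExpr and the robust quasi-likelihood test on all 12 libraries in 1 fit, with Benjamini-Hochberg adjustment over all genes of the fit. The threshold was 0.05 and 11 classes were tested. SE were derived from the p-values. DESeq2 1.42.0 was an alternative. Only the edgeR fit was tested on simulated data, drawn from the whole-lung sums without batch differences.

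All 10 members were to be named in every comparison, and in the cell classes those called or near the threshold are given with values. For members with at least 100 UMIs the 3 genes with the highest correlation over classes were named (those of Epha2 are not reported here), and of the list of 50 genes up to 4 called per comparison. The members, lists and tests were chosen with earlier results of these data known. Each library is 1 mouse, so the tests set group differences against the spread between libraries within groups. That spread can hold run or batch differences as well as those between mice. In the PBS libraries same-numbered samples deviated together (correlations of their deviations 0.88, 0.64 and 0.74). A fit of these 6 libraries with the replicate number as a block, chosen after seeing the data, called 0 members and 0 pairs in PBS_NVP against PBS_vehicle. Elsewhere the correlations of same-numbered samples ran from -0.20 to 0.47. They were positive for number 2 in each pair of groups but of both signs for numbers 1 and 3, so the numbers did not pair all samples.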

Additional observations from a re-analysis of the deposited data

How the results depend on the processing

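No called change of a member reversed direction under any alternative tried. The number of genes called in the whole lung was 352 for Bleo_vehicle against PBS_vehicle, 796 for Bleo_NVP against Bleo_vehicle and 43 for the interaction. With DESeq2 these were 992, 1722 and 351. With the replicate number as a replicate block they were 977, 1918 and 358, though the numbers did not pair all the bleomycin samples. With strict nuclei (a minimum of 500 UMIs and a mitochondrial share of 1% or less) they were 176, 327 and 22. With only the libraries compared they were 28 and 526, and with no filter on low counts the interaction had 73. Leaving out 1 library at a time gave 39 to 1321, 75 to 2231 and 15 to 210 genes.

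Members called in the whole lung were 1 in Bleo_vehicle against PBS_vehicle and 2 in Bleo_NVP against Bleo_vehicle. The first became 0 with only the libraries compared, with thinning to the smallest library and with strict nuclei. The second became 1 with no filter and with only the libraries compared, and 0 with strict nuclei. Without 1 library the ranges were 0 to 3 and 0 to 4. The pairs of members and classes called were 4, 2, 0 and 0 for these comparisons, Bleo_NVP against PBS_NVP and the interaction. No filter gave 13, 9, 1 and 5. Only the libraries compared gave 2 and 0, keeping doublets 2 and 4, and strict nuclei 1 and 0. Thinning gave 2 in the first, DESeq2 4 and the doubled resolution 1 in the second, and the replicate block 1 in the interaction. Without 1 library the ranges were 0 to 11, 0 to 10, 0 to 0 and 0 to 3. The causes were not tested. The fewer calls with only the libraries compared and with thinning go with fewer samples or counts in those fits.

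Of single calls, Epha1 in fibroblasts was kept under 19 of 22 alternatives (log2 -2.48 to -1.45) against PBS_vehicle and 17 of 22 (1.25 to 2.27) for the inhibitor. The call of Epha4 in AT2 cells was kept under 12 of 22, Epha7 under 8 of 22 and Efna5 under 7 of 22. That of Efna5 in alveolar macrophages was kept under 15 of the 16 in which it was tested. It was not tested under the rest of the 22, so its share is not comparable with the others. The highest class of Epha2 and Epha4 became a class with transitional alveolar markers, not named otherwise, with strict nuclei (82.0 and 363 CPM) or no batch correction (88.8 and 263 CPM). In the fibroblast subclusters, with alternatives chosen after seeing the data, the 4 calls of Epha3 and Efna5 were kept under 11 to 13 of 17 or 18. Depth limits Epha5, Efna2 and Efna4, with at most 321 UMIs each.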
